A study of Danio rerio with 18 samples.

Results

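The maternal-to-zygotic transition was followed in mock injected zebrafish embryos by comparing whole embryos at 5 hours post fertilization (hpf) with embryos at the 128-cell stage. Only libraries labelled Mock were taken, which gave 6 of the 18 libraries of the series, 3 at 5 hpf and 3 at the 128-cell stage. All embryos came from crosses of Tg(ddx4:ddx4-EGFP) females, which load a transcript fusing the germ cell gene ddx4 to EGFP into the egg, with casper males, a strain that lacks most pigment. The females were a mixture of homozygous and heterozygous carriers, so that the maternal dose of the transgene was not uniform. Each embryo of both groups had received 1 nl of Tris storage buffer diluted with water into the yolk at the 1-cell stage, without complex and without crRNA. Each library was made from RNA of a pool of 25 embryos, and the replicate numbers 1, 2 and 3 stand for 3 independent injections. The remaining libraries were mock injected embryos at 24 hpf and embryos injected with the Csm complex against EGFP at the 3 stages, and they were used only where they are named.

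As background, an early zebrafish embryo divides rapidly and synchronously on RNA and protein that the oocyte stored, with its own genome almost silent. The zygotic genome is then activated in the mid-blastula period by maternal transcription factors such as Pou5f3, Nanog and SoxB1 proteins, while many stored transcripts lose their poly(A) tails and are degraded. The 128-cell stage precedes the main wave of activation. At 5 hpf the embryo approaches gastrulation, its germ layers and its dorsoventral axis are being specified, and an epithelial enveloping layer and a yolk syncytial layer have formed around the deep cells.

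The 5 hpf libraries held 14353272, 12034028 and 13272791 reads assigned to genes (replicates 1, 2 and 3, the order used throughout), and the 128-cell libraries 13736898, 16053068 and 16704023. Levels are in CPM, the counts of a gene per 1e6 assigned reads, after scaling with the trimmed mean of M-values (TMM). They are relative levels in the polyadenylated RNA of a pool, and with TMM scaling they are not shares of the reads. For example, the mitochondrially encoded protein genes summed to 227000 CPM in library 1 of 5 hpf, where they took 15.8% of the assigned reads. Levels at 24 hpf are given without TMM scaling throughout. No spike-in was added, so that a change in the amount of a transcript, in its poly(A) tail, in the number of cells that hold it and in the total RNA per embryo cannot be told apart. The 3 libraries of a stage come from separate injections and differed by more than sampling noise, with a chi-square per degree of freedom of 34.21 to 99.96 between 5 hpf libraries and 15.04 to 23.8 between 128-cell libraries. Markers of the labelled stages mostly went in the direction of their stage, with members the other way. Among all genes tested, 38.4% were higher at 5 hpf and 38.7% lower. Of 46 oocyte and maternal-effect genes tested, 28 were lower at 5 hpf, 8 were higher and 10 were not called. Of 50 Nodal and mesendoderm genes, 40 were higher, 7 were lower and 3 were not called. At least 24 of the 40 had at most 1 CPM in each 128-cell library. Such genes pass the filter on low counts mainly by their level at 5 hpf. These counts describe the libraries and do not test the labels. Muscle transcripts, which neither stage should make in quantity, summed to 75.11, 69.77 and 58.3 CPM over the 32 listed genes at 5 hpf and to 87.84, 25.82 and 61.21 CPM at the 128-cell stage, against 19590 to 21650 CPM (without TMM scaling) at 24 hpf.

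The first question was how much of the measured transcriptome differed between the stages. Of 27452 genes with reads, 16462 passed the filter on low counts. edgeR's quasi-likelihood test with the replicate number as a block called 12696 of them (77.1%) at a Benjamini-Hochberg adjusted p under 0.1, which is the threshold of the study. At 5 hpf 6321 genes (38.4%) were higher and 6375 (38.7%) were lower, and 12537 of the called genes moved in the direction of the call in all 3 replicate pairs. A call with at least a 2-fold change was made for 4628 genes (28.1%) higher and 4425 genes (26.9%) lower. The levels of the 3 libraries of one stage did not overlap those of the other in 12068 genes (73.3%), 11640 of them called. With this background a count of called genes alone says little about a gene list, and the directions and sizes are given beside it.

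The changes were unequal in size in the 2 directions. The median log2 fold change (5 hpf over 128-cell) of all genes tested was -0.04, and the median absolute value of the called genes was 1.48. Among the called genes with an absolute log2 fold change of at least 3, 2111 were higher at 5 hpf and 294 lower. Rises by 6 or more on the log2 scale numbered 942, and only 1 gene fell by that much, with the extremes at 14.6 and -6.13. How far a gene could fall is limited by its level at the 128-cell stage and by the depth at 5 hpf. The split into higher and lower also rests on the scaling, since the TMM factors were 0.6989, 0.8069 and 0.8468 at 5 hpf, against 1.2543, 1.293 and 1.2911 at the 128-cell stage. Scaled by library totals instead, the median of all genes became -0.75 and the calls became 4209 higher and 9304 lower, with 949 genes in place of 294 meeting the rule of lower in every pair by at least 8-fold, and with DESeq2's size factors they were 6690 higher and 5934 lower. All fold changes here are relative to the scaling used, whatever their size. For changes of under about 0.7 on the log2 scale, the direction itself can turn with the scaling.

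**Figure D1:**
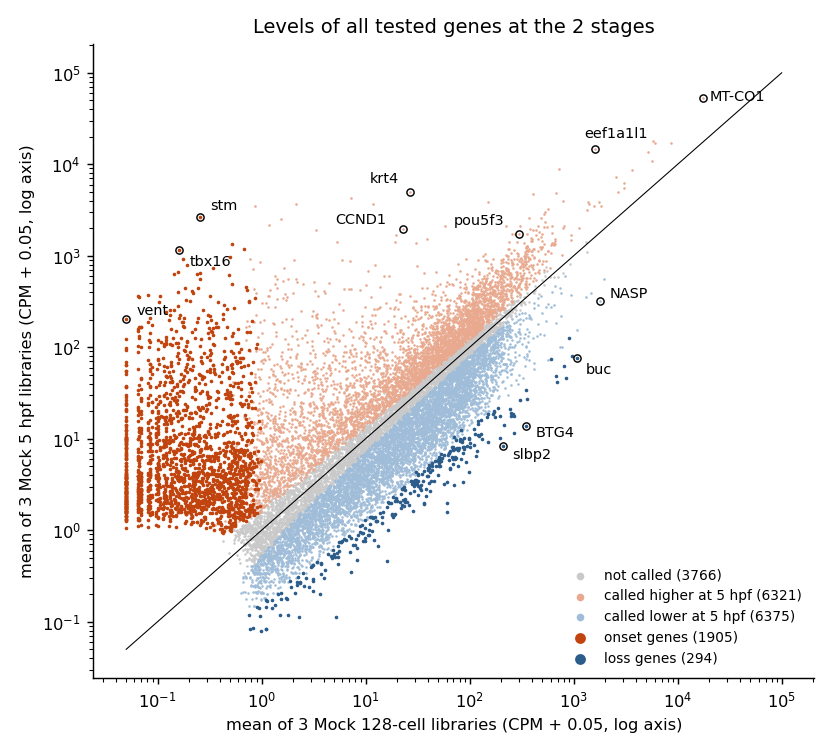
Mean level of each of the 16462 genes tested in the 3 mock libraries at 5 hpf (vertical, CPM + 0.05, log axis) against the mean in the 3 mock libraries of the 128-cell stage (horizontal, same scale), with the line of equal levels. The 1905 onset genes form a block at the left, spread over more than 3 powers of 10 at 5 hpf, while the 294 loss genes lie in a narrow band below the line.

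The shares of the sequenced RNA shifted between classes of genes. Genes called higher by at least 2-fold took 61.1%, 60.5% and 57.3% of the assigned reads at 5 hpf, against 25.2%, 24.7% and 23.8% at the 128-cell stage. Genes called lower by at least 2-fold took 4.04%, 3.96% and 5.59% at 5 hpf, against 24.8%, 25.0% and 24.9% at the 128-cell stage. These classes were formed from the same comparison, so the shares describe its size and carry no test. Counting error is negligible at this depth, with exact Clopper-Pearson 95% intervals of 61.08% to 61.13% for the first share, for example. Among the 5 hpf libraries, library 3 kept the largest share of the genes that fell and the smallest of those that rose.

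**Figure D2:**
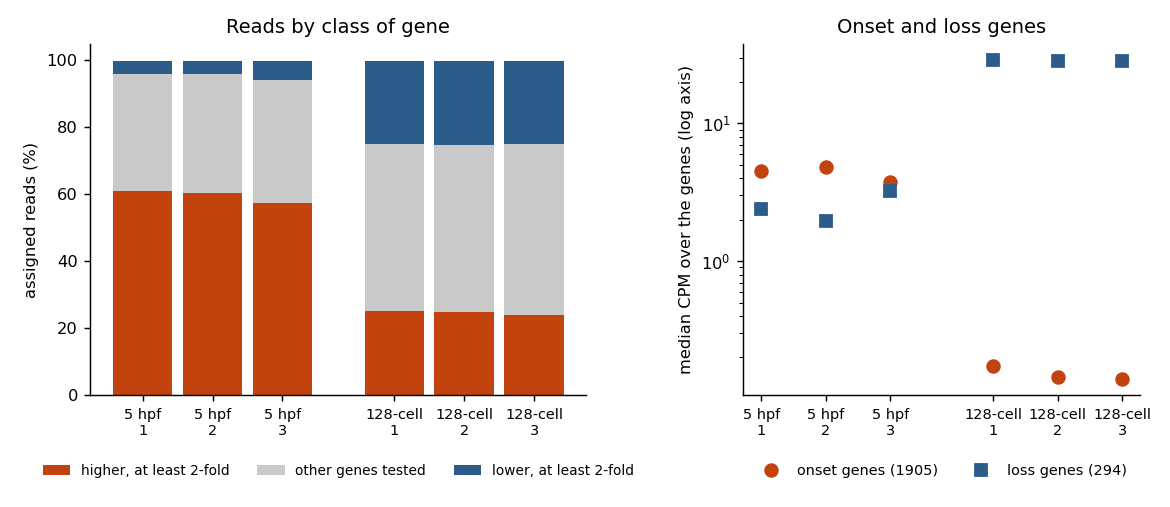
Left, percent of assigned reads in each library taken by genes called higher by at least 2-fold at 5 hpf, by genes called lower by at least 2-fold, and by the other genes tested. Right, median CPM (log axis) of the 1905 onset and the 294 loss genes in each library, where onset genes sit at 3.74 to 4.85 CPM at 5 hpf and 0.139 to 0.174 CPM at the 128-cell stage, and loss genes at 1.96 to 3.21 CPM and 28.5 to 28.9 CPM.

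Genes that were called higher in all 3 pairs and had at most 1 CPM in each 128-cell library were termed onset genes. There were 1905 of them (11.6% of the genes tested), and 193 had no read in any of the 128-cell libraries. Most were modest at 5 hpf, with a median of 4.46 CPM and quartiles of 2.3 and 14.3 CPM, and 124 of them reached 100 CPM. Together they took 3.95%, 5.11% and 3.87% of the assigned reads at 5 hpf, against 0.0609%, 0.0546% and 0.0529% at the 128-cell stage. In 690 of the 1905 the gene has only a clone name or no symbol. In mock embryos at 24 hpf, 701 of the 1905 averaged under 1 CPM (without TMM scaling), among them 99 that had at least 10 CPM (with TMM scaling) at 5 hpf. Since the level at the 128-cell stage chose these genes, the values are descriptions.

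The 12 onset genes with the highest level at 5 hpf lay between 456 and 3660 CPM in the 5 hpf libraries, and between 0 and 0.965 CPM in the 128-cell libraries, with 5 to 37 reads each over the 3 libraries of that stage. The first in order was stm (ENSDARG00000035694), which encodes starmaker, a protein of the otolith known from later zebrafish development. It had 2022, 3660 and 2184 CPM at 5 hpf, against 0.233, 0.193 and 0.186 CPM at the 128-cell stage. Its log2 fold change was 13.60 ± 0.34, with the error derived from the test statistic. The T-box genes tbx16 (ENSDARG00000007329) and tbxta (ENSDARG00000101576), which encode transcription factors of the early mesoderm, are both among the 12. The values of tbx16 were 1121, 1454 and 899 CPM at 5 hpf, against 0.233, 0.0965 and 0 CPM at the 128-cell stage, and those of tbxta were 628, 800.4 and 539.9 CPM, against 0.233, 0.241 and 0.139 CPM. A subunit gene of RNA polymerase III, polr3gla (ENSDARG00000012044), had 1064, 1340 and 1127 CPM at 5 hpf, against 0.639, 0.627 and 0.604 CPM at the 128-cell stage, with the smallest fitted fold change of the 12 (10.87 ± 0.26). The remaining 8 were the tight junction gene cldne, evpla, which encodes an envoplakin of cornified epithelia, the amino acid transporter gene SLC7A8, the sulfotransferase gene sult6b1, asb11, lye, si:ch211-152c2.3 and si:ch211-125o16.4. Fitted log2 fold changes of the 12 ran up to 13.60 and stayed within 10.74 and 14.38 when any one replicate number was left out. The rule chose these genes by their levels in the same libraries, so their fold changes are descriptions and carry no test.

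Some regulators had no read at all at the 128-cell stage, and for these a fold is a lower bound against 3 reads over the 3 libraries. The ventral homeobox gene vent (ENSDARG00000100483) had 158, 293 and 160.4 CPM at 5 hpf, at least 3980-fold higher than that floor. The homeobox gene sebox had 31.1, 94.3 and 37.9 CPM (at least 1060-fold higher) and mespab, a basic helix-loop-helix gene of the mesoderm, had 48.3, 57.6 and 48.7 CPM (at least 1020-fold higher). None of the 3 genes averaged more than 1.1 CPM (without TMM scaling) at 24 hpf, so their transcripts were present in quantity at only the middle one of the 3 stages sampled.

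Genes that were called lower in all 3 pairs and by at least 8-fold were termed loss genes. There were 294 (1.79% of the genes tested), with a median of 2.74 CPM at 5 hpf and 29.0 CPM at the 128-cell stage. They took 0.119%, 0.0953% and 0.214% of the assigned reads at 5 hpf, against 2.67%, 2.67% and 2.55% at the 128-cell stage. Loss genes were still detected at 5 hpf: the highest of the 12 most abundant loss genes still had 202 CPM in 1 of the 5 hpf libraries. Library 3 of 5 hpf was the highest of its stage for 182 of the 294 (61.9%), and the median log2 change was -3.11, -3.41 and -2.63 in pairs 1, 2 and 3. Without replicate 3, 487 genes met the same rule.

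Among the 12 loss genes with the highest level at the 128-cell stage, the first was buc (ENSDARG00000096095), which encodes Bucky ball, the organizer of the Balbiani body and germ plasm of the zebrafish oocyte. It had 34.5, 29.8 and 166 CPM at 5 hpf, against 1120, 1024 and 1077 CPM at the 128-cell stage (log2 fold change -4.29 ± 0.50, and -5.07 without replicate 3). The rasef2 gene showed the same split among the replicates in a stronger form, with 12.9, 7.84 and 105 CPM at 5 hpf, against 719, 657 and 705 CPM at the 128-cell stage. Its fold change was -4.95 ± 0.72 (adjusted p = 0.000438, edgeR), and the call was lost without replicate 1 (-4.45) and without replicate 2 (-4.11), while the value was -6.09 without replicate 3. BTG4 (ENSDARG00000035171), whose mouse counterpart recruits the CCR4-NOT deadenylase to maternal mRNA, was uniform, with 14.5, 13.5 and 12.8 CPM at 5 hpf, against 384, 361 and 306 CPM at the 128-cell stage (-4.68 ± 0.17). The gene h2af1al, of an H2A-type histone, had 137, 36.1 and 202 CPM at 5 hpf, against 1089, 801 and 832 CPM at the 128-cell stage (-3.14 ± 0.39, and -2.52 without replicate 2 and -3.73 without replicate 3). The claudin genes cldng (-4.27 ± 0.28) and cldnd (-3.80 ± 0.26) also belonged to the 12, with mcm3l, zgc:56231, eloal, ppp1r3c2b, map1lc3c and PDIA4, the last one encoding a disulfide isomerase of the endoplasmic reticulum. In 9 of the 12, library 3 was the highest of the 5 hpf libraries.

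**Figure D3:**
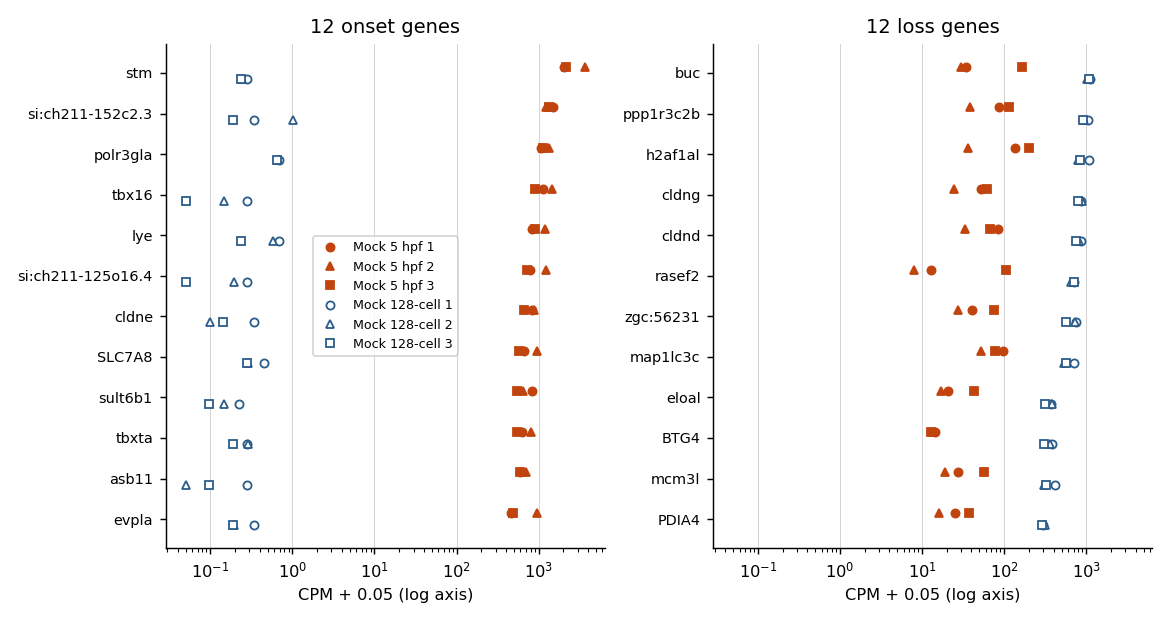
CPM + 0.05 (log axis) of the 12 onset genes (left panel) and the 12 loss genes (right panel) in each mock library, with filled symbols for 5 hpf, open symbols for the 128-cell stage and 1 shape per replicate number. All 12 onset genes lie at or above 456 CPM at 5 hpf and under 1 CPM at the 128-cell stage, while the loss genes span 7.84 to 202 CPM at 5 hpf and lie at or above 291 CPM at the 128-cell stage.

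The genes with the largest change in CPM, rather than in fold, were of another kind. MT-CO1, the mitochondrial gene of a cytochrome c oxidase subunit, had 87601, 32369 and 39946 CPM at 5 hpf, against 19472, 19520 and 13088 CPM at the 128-cell stage (log2 fold change 1.51 ± 0.34). It was followed by eef1a1l1, a translation elongation factor gene, with 17642, 12767 and 13558 CPM at 5 hpf, against 1679, 1560 and 1584 CPM at the 128-cell stage (3.17 ± 0.25). MT-CO2 and MT-CYB, 2 further mitochondrial genes, and ENSDARG00000080337, which has no symbol in the table used, completed the 5. The last had 25050, 16589 and 9655 CPM at 5 hpf, against 9068, 7741 and 8918 CPM at the 128-cell stage (0.90 ± 0.30), and its call was lost without replicate 1 (0.60). Its levels in replicate 3 were close at the 2 stages, and the size of its gain depends on the TMM scaling. The same holds for the mitochondrial genes. Mitochondrially encoded protein genes had a median of 1.14 with TMM scaling and 0.43 with library totals. In replicate 2 they took 7.03% of the assigned reads at 5 hpf, against 7.52% at the 128-cell stage. The 5 largest falls in CPM belonged to buc, to the histone chaperone gene NASP, to h1m, which encodes the maternal linker histone, to ACP5 and to HSPA5, an endoplasmic reticulum chaperone gene. NASP had 419, 265 and 266 CPM at 5 hpf, against 2061, 1712 and 1630 CPM at the 128-cell stage (-2.54 ± 0.19). The level of h1m was 767, 298 and 615 CPM at 5 hpf, against 2454, 1573 and 1836 CPM at the 128-cell stage (-1.88 ± 0.21).

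Maternal activators of the zygotic genome had members in both directions. Of 12 genes tested, 4 were higher at 5 hpf, 4 were lower and 4 were not called, with a median log2 fold change of 0.20 beside -0.04 for all genes. Among all genes tested 38.4% were higher and 38.7% lower, so this split is near that of all genes. Scaled by library totals, 3 were higher and 8 lower. The level of pou5f3, whose product opens chromatin at early zygotic enhancers, rose to 1472, 2274 and 1433 CPM at 5 hpf, against 269, 297 and 328 CPM at the 128-cell stage (2.5 ± 0.21). Transcripts of foxh1, the Nodal-responsive forkhead factor, were at 278, 532 and 292 CPM at 5 hpf, against 57.0, 82.8 and 97.4 CPM at the 128-cell stage (2.19 ± 0.21), and CTCF, of the insulator protein, rose by 1.83 ± 0.19. In contrast sox19b, the maternal SoxB1 gene, fell to 36.8, 51.0 and 99.1 CPM at 5 hpf, against 309.9, 336 and 385 CPM at the 128-cell stage (-2.58 ± 0.22), and SMAD2, a transducer of Nodal signals, had a log2 fold change of -1.93 ± 0.17. The level of nanog was 459, 664 and 512 CPM at 5 hpf, against 454, 475 and 575 CPM at the 128-cell stage (0.11 ± 0.18, adjusted p = 0.591, edgeR), groups that overlap. At 24 hpf nanog averaged 0.780 CPM and pou5f3 2.27 CPM (without TMM scaling).

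Of 23 zygotic SoxB and blastoderm factors, 20 could be tested and all 20 were higher, with a median of 7.74 and 9 onset genes. A gene with few reads at the 128-cell stage passes the filter only by its level at 5 hpf. The count is therefore partly set by the filter. Among those not tested, DLX3 had 42 reads at 5 hpf and 7 at the 128-cell stage, hoxb1b 7 and 16, and cdx1b 0 and 2. The filter also partly set the counts of other lists with onset genes. These were 24 of 50 Nodal, 12 of 30 BMP, 11 of 34 Wnt and 10 of 22 FGF genes tested. Onset genes were also 10 of 28 enveloping layer, 10 of 20 yolk syncytial layer and 11 of 38 cell adhesion genes. The SoxB1 gene sox19a had 659.7, 882 and 598 CPM at 5 hpf, against 1.1, 0.338 and 0.882 CPM at the 128-cell stage (9.84 ± 0.36). SOX2 had 46.8, 50.5 and 47.3 CPM at 5 hpf, against 0.174, 0.145 and 0.325 CPM at the 128-cell stage (7.74 ± 0.31). Of 2 genes under the symbol ZIC2, which encodes zinc finger factors of the neural plate, ENSDARG00000037178 had 767, 1209 and 746 CPM at 5 hpf, against 5.93, 7.14 and 4.69 CPM at the 128-cell stage (7.25 ± 0.21). GATA3, a factor of the ventral ectoderm, rose by 9.70 ± 0.26.

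Nodal and mesendoderm genes comprised ligands, a co-receptor, receptors and their targets, and 40 of 50 were higher, 7 lower and 3 not called (median 5.84). Of the ligands, ndr1 was measured at the 128-cell stage and ndr2 had only 4 reads there: ndr1 had 39.0, 14.3 and 20.8 CPM at 5 hpf, against 5.93, 4.30 and 3.95 CPM at the 128-cell stage (2.29 ± 0.25), and ndr2 had 79.9, 32.9 and 31.6 CPM, against 0.116, 0.0483 and 0.0464 CPM (9.25 ± 0.33). The third ligand of the pathway, gdf3 (Vg1), was at 386, 201 and 341 CPM at 5 hpf, against 436, 328 and 350.2 CPM at the 128-cell stage, and was not called (-0.31 ± 0.17, adjusted p = 0.135, edgeR). The co-receptor gene tdgf1 (one-eyed pinhead, ENSDARG00000035095) rose to 399.7, 511 and 387 CPM at 5 hpf, against 90, 99.1 and 89.9 CPM at the 128-cell stage (2.21 ± 0.16). The Nodal inhibitor gene lft2 was at 73.8, 24.5 and 31.2 CPM at 5 hpf, against 0.407, 0.241 and 0.186 CPM at the 128-cell stage (7.18 ± 0.30). In each of ndr1, ndr2 and lft2, library 1 stood above the other 5 hpf libraries. Among the targets, sox32, the endoderm determinant of fish, had 202, 124 and 119 CPM at 5 hpf, against 0.116, 0.241 and 0.139 CPM at the 128-cell stage (9.67 ± 0.30), and its own target SOX17 had 11.9, 8.26 and 7.40 CPM, against 0.0581, 0.0483 and 0.0929 CPM (6.89 ± 0.44). The homeobox genes mixl1 (5.93 ± 0.23), GSC (5.75 ± 0.23) and noto (9.50 ± 0.32) rose as well. A T-box gene under the symbol EOMES (ENSDARG00000006640), a family known for its part in endoderm formation, was lower, at 48.4, 22.1 and 54.1 CPM at 5 hpf, against 83.2, 75.6 and 93.4 CPM at the 128-cell stage (-1.1 ± 0.22).

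Of 30 BMP and dorsoventral genes tested, 26 were higher, 1 was lower and 3 were not called (median 4.82), with 2 lower without replicate 2 and 3 lower when scaled by library totals. Genes of both sides of the axis rose. On the ventral side, the ligand genes bmp7a (7.97 ± 0.28) and BMP4 (8.76 ± 0.29) and one of the genes under the symbol BMP2 (ENSDARG00000041430, 10.48 ± 0.37) were called. The ventral repressor genes vox and ved had 489.8, 358 and 303 CPM (vox) and 1214, 599.6 and 772 CPM (ved) at 5 hpf, against 2.96, 1.01 and 0.929 CPM and 0.872, 1.11 and 0.789 CPM at the 128-cell stage. On the dorsal side, chrd, which encodes the BMP antagonist Chordin, had 319.7, 179 and 173 CPM at 5 hpf, against 0.0581, 0.145 and 0.0464 CPM at the 128-cell stage (11.19 ± 0.31, and 11.95 without replicate 2). Among genes of BMP feedback and response, szl (sizzled) encodes a feedback inhibitor of Chordin breakdown. It had 65.1, 76.3 and 77.9 CPM at 5 hpf and a single read in each 128-cell library, a ratio of 1450 with a counting interval of 496 to 7050. ID1, a general BMP target, rose to 536, 786 and 472 CPM at 5 hpf, against 15.2, 15.2 and 20.3 CPM at the 128-cell stage (5.12 ± 0.25). The 1 member that was lower was gdf6a, a ligand gene, at 1.60, 1.14 and 2.5 CPM at 5 hpf, against 14.9, 14.5 and 12.2 CPM at the 128-cell stage (-2.99 ± 0.32).

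Wnt genes were mixed, with 24 of 34 higher, 6 lower and 4 not called (median 1.88). The non-canonical ligand gene wnt11f2, needed for convergence movements, had 375, 278 and 268 CPM at 5 hpf, against 1.34, 0.917 and 0.650 CPM at the 128-cell stage (8.32 ± 0.22). The maternal effector CTNNB1 (β-catenin) rose to 756, 1139 and 893 CPM at 5 hpf, against 149, 179 and 178 CPM at the 128-cell stage (2.45 ± 0.17), and AXIN1, of the destruction complex, was lower (-0.85 ± 0.16). The Wnt target gene sp5l had 223, 249 and 163 CPM at 5 hpf, against 2 reads in all at the 128-cell stage, a ratio of 6220 with a counting interval of 1720 to 51300. The feedback gene AXIN2 was not called, at 129, 122 and 89.8 CPM at 5 hpf, against 82.0, 112 and 87.0 CPM at the 128-cell stage (0.28 ± 0.17). Both identifiers under the symbol WNT8A had 0 reads in all 6 libraries; how overlapping genes were counted is not given in the sources used here, so this says nothing about the transcript.

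FGF genes were higher in 20 of 22 and lower in 2 (median 4.41). The receptor gene fgfr4 had 677, 709 and 462 CPM at 5 hpf, against 0.756, 0.0965 and 0.464 CPM at the 128-cell stage. A ligand gene under the symbol FGF8 (ENSDARG00000003399) had 126, 82.3 and 82.6 CPM at 5 hpf, against 0.639, 1.59 and 0.975 CPM at the 128-cell stage (6.45 ± 0.33). DUSP6, a phosphatase that limits FGF signals and is switched on by them, had 207, 361 and 225 CPM at 5 hpf, against 0.872, 0.193 and 0.186 CPM at the 128-cell stage. The ETS factor genes of the pathway moved in opposite directions, with ETV4 higher (2.64 ± 0.15) and etv5a lower (-1.12 ± 0.15). Of 11 retinoic acid genes, 7 were higher and 4 lower (median 1.77). The synthesis gene ALDH1A2 had 75.1, 53.6 and 45.6 CPM at 5 hpf, against 1.45, 0.241 and 1.11 CPM at the 128-cell stage (6.01 ± 0.36), while the breakdown gene CYP26A1 was present at both stages (1.77 ± 0.18).

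**Figure D4:**
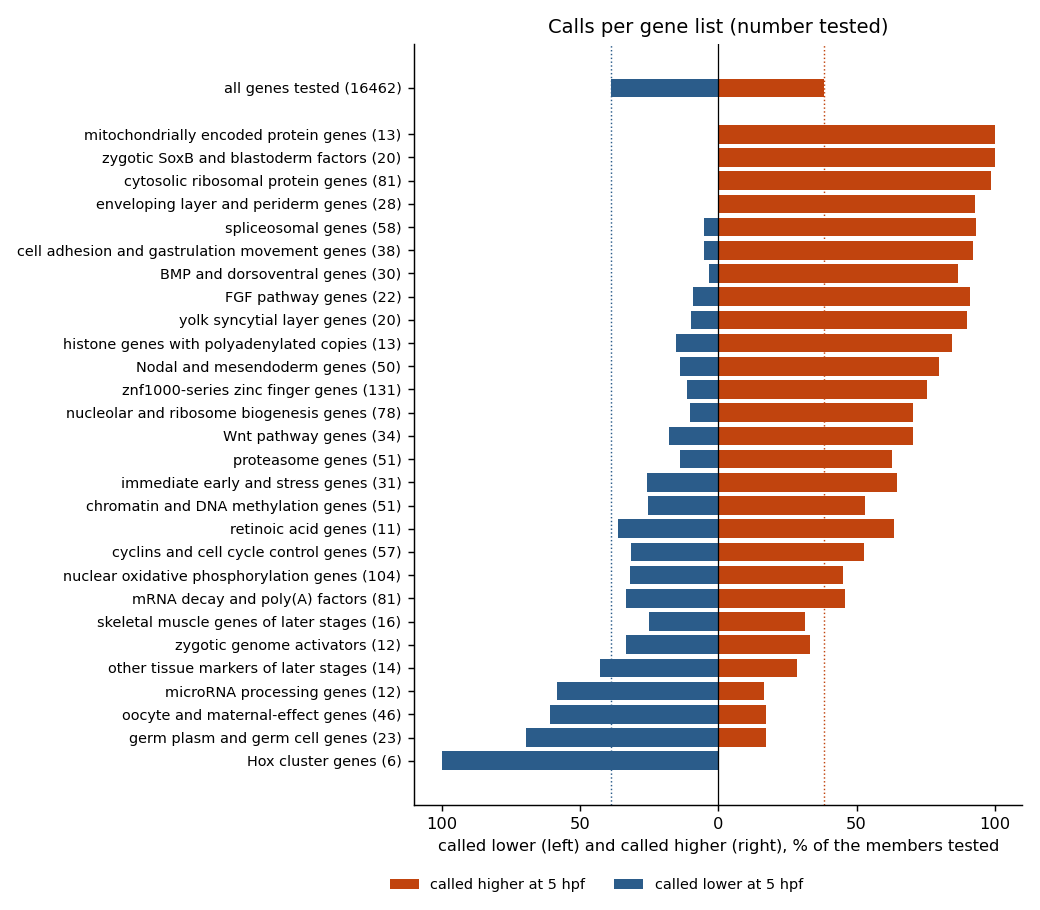
Percent of the tested members of each gene list called higher (right) and lower (left) at 5 hpf against the 128-cell stage, with the number tested in brackets and the shares among all 16462 genes as dotted lines. Patterning, epithelial, ribosomal protein and spliceosomal genes lie mostly to the right, and oocyte, germ plasm and microRNA processing genes to the left.

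The first epithelium of the embryo had its own set of transcripts. Of 33 enveloping layer and periderm genes, 28 could be tested. With 10 onset genes among them, the count is partly set by the filter. Of the 28, 26 were higher, none was lower and 2 were not called (median 7.51), with 1 lower without replicate 2 and 2 lower when scaled by library totals. Keratin genes were among them: krt18a.1 was at 3794, 3876 and 2750 CPM at 5 hpf, against 1.34, 0.338 and 0.743 CPM at the 128-cell stage (12.11 ± 0.41), and krt8 was at 5524, 3686 and 3502 CPM, against 9.77, 6.61 and 5.11 CPM (9.23 ± 0.27). For krt4, with 6273, 4611 and 4057 CPM at 5 hpf, the 128-cell libraries disagreed (46.3, 3.04 and 30.0 CPM), and its log2 fold change of 8.03 ± 0.80 became 8.68, 7.08 and 8.69 without replicate 1, 2 and 3 in turn. The epithelial transcription factor genes grhl3 (9.40 ± 0.26) and klf17 (5.29 ± 0.32) also rose. Of the members that were not called, epcam, of an epithelial adhesion protein, was at 1168, 1129 and 977 CPM at 5 hpf, against 1483, 1279 and 1310 CPM at the 128-cell stage.

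Yolk syncytial layer genes were higher in 18 of 20 and lower in 2 (median 5.97). This layer feeds yolk lipid to the embryo. The count of lower members was 1 without replicate 3, and some listed apolipoprotein genes, such as apoea, chosen after its values were seen, with 1 read at 5 hpf and 2 reads at the 128-cell stage, had too few reads to test. The gene apoeb, of an apolipoprotein E, had 4355, 3454 and 3209 CPM at 5 hpf, against 3.26, 1.54 and 1.53 CPM at the 128-cell stage (10.82 ± 0.31). MTTP, which loads lipid onto apolipoprotein B, had 409.9, 397 and 302 CPM at 5 hpf and 2 reads in all at the 128-cell stage, a ratio of 10900 with a counting interval of 3020 to 90000. The homeobox gene mxtx1, specific to this layer, had 119.6, 133 and 104 CPM at 5 hpf, also against 2 reads.

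Cell adhesion and gastrulation movement genes were higher in 35 of 38 and lower in 2 (median 2.08), with 1 lower without replicate 2. HAS2, of the hyaluronan synthase needed for migration of deep cells in zebrafish, had 119.7, 183 and 88.3 CPM at 5 hpf, against 0.116, 0.0965 and 0 CPM at the 128-cell stage (10.75 ± 0.35). The cadherin genes CDH2 (N-cadherin, 3.85 ± 0.23) and cdh1 (E-cadherin) both rose, and cdh1 was at 555, 329 and 278 CPM at 5 hpf, against 157, 154 and 160.5 CPM at the 128-cell stage (1.24 ± 0.20). The GTPase gene rhoab was at 403, 262 and 294 CPM at 5 hpf, against 0.756, 0.965 and 0.418 CPM at the 128-cell stage (8.78 ± 0.28).

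Of the oocyte and maternal-effect genes, 28 of 46 were lower, 8 higher and 10 not called (median -1.43), and 12 were loss genes. Beside buc and BTG4, the largest falls were those of slbp2, the oocyte form of a histone mRNA binding protein, with 9.99, 5.57 and 9.09 CPM at 5 hpf, against 204, 233 and 198 CPM at the 128-cell stage (-4.70 ± 0.23), of the importin gene kpna7 (-3.78 ± 0.24) and of bmp15, an oocyte growth factor gene, with 9.39, 4.75 and 6.51 CPM, against 102, 82.5 and 73.6 CPM (-3.67 ± 0.22). MOS, the kinase that holds the egg in meiotic arrest, had 6.29, 2.48 and 7.31 CPM at 5 hpf, against 41.9, 45.7 and 42.7 CPM at the 128-cell stage (-3.08 ± 0.30). Among the 8 that were higher, YBX1 (2.4 ± 0.20) encodes an RNA-binding protein with general roles. YBX1 had 3456, 1979 and 2415 CPM at 5 hpf, against 565, 476 and 421 CPM at the 128-cell stage. Transcripts of the egg coat did not fall together under TMM scaling: zp3b was lower (-0.68 ± 0.17), and zp2.3, at 24.1, 11.7 and 16.9 CPM at 5 hpf, against 9.07, 7.43 and 8.17 CPM at the 128-cell stage, was higher (1.04 ± 0.23). The size of both changes depends on the scaling, since the median of all genes was -0.75 with library totals, against -0.04. Scaled by library totals, 3 of the 46 were higher and 35 lower.

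Germ plasm and germ cell genes were lower in 16 of 23 and higher in 4 (median -1.31), with 2 higher without replicate 1, and 2 higher and 19 lower when scaled by library totals. DAZL, of an RNA-binding protein of germ cells, had 18.9, 14.2 and 21.6 CPM at 5 hpf, against 107, 126 and 117 CPM at the 128-cell stage (-2.69 ± 0.20). The Tudor gene TDRD6 (-2.52 ± 0.25), the piRNA pathway gene PIWIL2 (-2.35 ± 0.19), DND1 (-1.52 ± 0.18) and NANOS3 (-1.05 ± 0.18) also fell, NANOS3 to 20.5, 20.5 and 16.8 CPM at 5 hpf, against 38.4, 45.5 and 35.5 CPM at the 128-cell stage. In this bulk measurement the germ cells are a small share of the embryo. Of the 4 members that were higher, 2 go under the symbol CXCR4, a chemokine receptor that guides germ cells and is also made by somatic cells, at 164, 259 and 166 CPM at 5 hpf, against 3.02, 6.85 and 3.39 CPM at the 128-cell stage (ENSDARG00000041959, 5.52 ± 0.20) and 177, 233 and 138 CPM, against 1.16, 1.45 and 1.11 CPM (ENSDARG00000057633, 7.17 ± 0.21).

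The transgene and its host gene were read as separate features. The EGFP transcript, known as strictly maternal in this line, had 132, 173 and 132 CPM at 5 hpf, against 189.6, 322 and 182 CPM at the 128-cell stage (-0.63 ± 0.16, adjusted p = 0.0039, edgeR), and library 2 was the highest at both stages. DDX4, to which reads of the fused ddx4 sequence may also be assigned, had 727, 738 and 617 CPM at 5 hpf, against 501, 610.4 and 441 CPM at the 128-cell stage (0.43 ± 0.16, adjusted p = 0.0319, edgeR). Scaled by library totals, DDX4 was at -0.28, and its call was lost without replicate 1 (0.37) and without replicate 3 (0.40), so that no direction is given for it. At 24 hpf EGFP averaged 0.979 CPM and DDX4 6.62 CPM (without TMM scaling).

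Of the mRNA decay and poly(A) factors, 37 of 81 were higher, 27 lower and 17 not called (median 0.27), beside 38.4% higher and 38.7% lower among all genes tested. The split turned to 23 higher and 43 lower when scaled by library totals. The RNA-binding protein gene cth1 had 106, 80.9 and 119 CPM at 5 hpf, against 727, 820.1 and 795 CPM at the 128-cell stage (-2.96 ± 0.19), and patl2, of an oocyte decapping factor relative, had 16.6, 29.2 and 27.2 CPM, against 120.3, 167 and 152 CPM (-2.62 ± 0.17). The deadenylase subunit gene CNOT7 was at 6.69, 5.68 and 12.9 CPM at 5 hpf, against 32.8, 38.5 and 39.6 CPM at the 128-cell stage (-2.20 ± 0.25). In the other direction, igf2bp1 (2.80 ± 0.21), whose protein protects bound mRNA, ELAVL1 (2.58 ± 0.19) and the nonsense-mediated decay helicase gene UPF1 (1.77 ± 0.16) rose. The reader of m6A-marked mRNA YTHDF2 was at 217, 298 and 215 CPM at 5 hpf, against 90.8, 104 and 93.0 CPM at the 128-cell stage (1.33 ± 0.15). Of 12 microRNA processing genes, 7 were lower, 2 higher and 3 not called (median -0.63), beside 38.4% higher and 38.7% lower among all genes tested. Scaled by library totals, 9 were lower and 1 higher. Lower members numbered 5 without replicate 1 and 9 without replicate 2. DROSHA, which cuts primary microRNAs in the nucleus, had 20.2, 14.4 and 17.6 CPM at 5 hpf, against 178, 185 and 158 CPM at the 128-cell stage (-3.33 ± 0.18), and its partner DGCR8 fell by 0.73 ± 0.15 on the log2 scale. The microRNAs themselves were not measured by these libraries.

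The cell cycle slows and gains gap phases over this interval. Of 57 cyclins and cell cycle control genes, 30 were higher, 18 lower and 9 not called (median 0.44), beside 38.4% higher and 38.7% lower among all genes tested. The counts became 20 higher and 27 lower when scaled by library totals. The G1 cyclin gene CCND1 had 1825, 2498 and 1544 CPM at 5 hpf, against 23.6, 19.7 and 25.9 CPM at the 128-cell stage (6.38 ± 0.27). CCNE2, of a cyclin of the entry into S phase, was at 394, 500.4 and 357 CPM at 5 hpf, against 2.96, 3.33 and 3.30 CPM at the 128-cell stage (7.01 ± 0.21). The mitotic cyclin gene CCNB1 was not called, with 578, 576 and 597 CPM at 5 hpf, against 598, 579 and 754 CPM at the 128-cell stage. CHEK1, of a checkpoint kinase that acts when divisions lengthen, fell to 21.6, 15.7 and 17.9 CPM at 5 hpf, against 76.4, 75 and 71.4 CPM at the 128-cell stage (-2.02 ± 0.18).

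In 6 pairs of related genes, one member was higher at 5 hpf and the other lower, and the pairs were put together with their values known. SoxB1 genes sox19a and sox19b, the Wee kinase genes WEE1 (4.17 ± 0.20) and WEE2 (-1.70 ± 0.16), and the A-type cyclin genes CCNA2 (1.2 ± 0.16) and CCNA1 (-0.96 ± 0.17) are list members. WEE1 had 423, 397 and 315 CPM at 5 hpf, against 16.8, 26.0 and 20.4 CPM at the 128-cell stage, while WEE2, the oocyte form, had 114, 89.3 and 139.5 CPM, against 393, 333 and 372 CPM. For the replication licensing factor, MCM3, named outside the rule for genes after its values were seen, had 239, 351 and 223 CPM at 5 hpf, against 0.698, 0.145 and 0.650 CPM at the 128-cell stage (9.06 ± 0.38, and 8.40 without replicate 2), and mcm3l had 27.2, 19.1 and 56.9 CPM, against 421, 308 and 319.8 CPM (-3.47 ± 0.29). The antiproliferative gene BTG1 (3.95 ± 0.22) stood beside BTG4, and cldne beside cldnd. Near-identical stretches could be shared between such copies, and reads that align to several places made up 8.141% to 11.2% of all listed counts at 5 hpf, against 5.349% to 7.156% at the 128-cell stage.

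**Figure D5:**
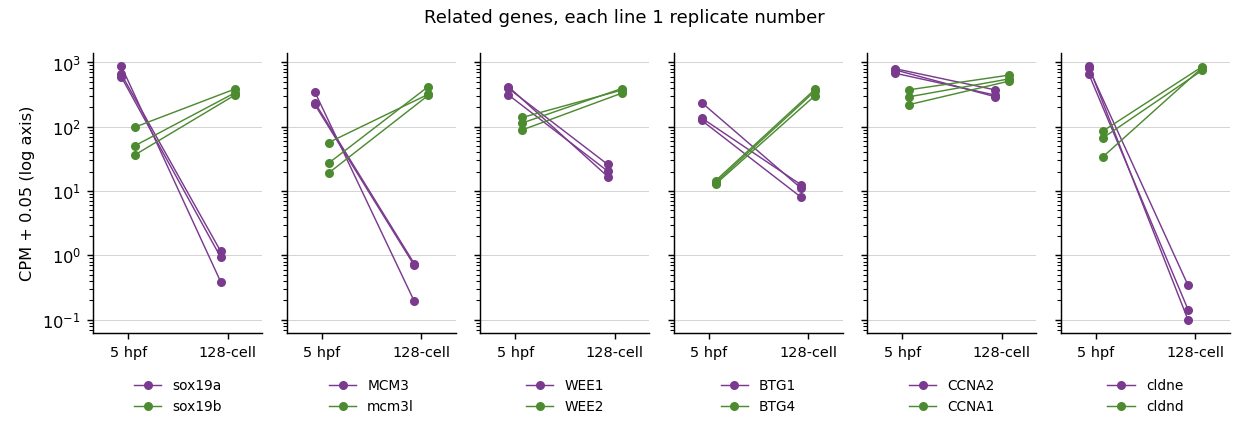
CPM + 0.05 (log axis) of 6 pairs of related genes at 5 hpf (left in each panel) and the 128-cell stage (right), 1 line per replicate number. In each panel the purple gene is higher at 5 hpf and the green gene lower in all 3 pairs of libraries; WEE1, for example, lies at 315 to 423 CPM at 5 hpf and 16.8 to 26.0 CPM at the 128-cell stage.

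Immediate early and stress genes were higher in 20 of 31 and lower in 8 (median 1.16). The Myc family gene mych had 653, 806 and 587 CPM at 5 hpf, against 10.2, 12.1 and 9.19 CPM at the 128-cell stage (6.02 ± 0.19), and the small heat shock protein gene HSPB1 had 1540, 1589 and 1158 CPM, against 3.55, 9.31 and 2.88 CPM (8.23 ± 0.33). HSPA5 fell, with 527, 183 and 358 CPM at 5 hpf, against 1488, 1263 and 1200 CPM at the 128-cell stage (-2.0 ± 0.25).

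Chromatin and DNA methylation genes were higher in 27 of 51 and lower in 13 (median 0.47), beside 38.4% higher and 38.7% lower among all genes tested. The counts became 18 higher and 24 lower when scaled by library totals. The maintenance methyltransferase gene DNMT1 fell to 120.1, 77.3 and 107 CPM at 5 hpf, against 704, 717 and 774 CPM at the 128-cell stage (-2.87 ± 0.19). The de novo methyltransferase gene dnmt3bb.2 rose to 414, 432 and 372 CPM at 5 hpf, against 107, 104 and 114 CPM at the 128-cell stage (1.90 ± 0.16). HDAC1 (1.67 ± 0.17) and EZH2 (1.34 ± 0.16), which encode a histone deacetylase and the H3K27 methyltransferase, also rose. Of 13 histone genes with polyadenylated copies, 11 were higher, and the 2 that were lower were the oocyte forms h2af1al and h1m. The gene h3f3a, of the replacement histone H3.3, had 1736, 2721 and 1817 CPM at 5 hpf, against 200, 227 and 239 CPM at the 128-cell stage (3.21 ± 0.21). Replication-dependent histone transcripts carry no poly(A) tail, and poly(A) selection does not measure them.

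Ribosomal protein and spliceosomal genes were mostly higher under both scalings, while the counts for nucleolar and proteasome genes depended on the scaling. Of 81 cytosolic ribosomal protein genes, 80 were higher and none was lower (median 1.67, range 0.18 to 2.81), and 76 remained higher when scaled by library totals. These genes took 6.01%, 2.85% and 4.41% of the assigned reads at 5 hpf, against 2.83%, 2.16% and 1.88% at the 128-cell stage. Spliceosomal genes were higher in 54 of 58 and lower in 3 (median 1.44), and 39 higher and 4 lower when scaled by library totals. Nucleolar and ribosome biogenesis genes were higher in 55 of 78 and lower in 8 (median 0.85), but 31 higher and 25 lower when scaled by library totals. Proteasome genes were higher in 32 of 51 and lower in 7 (median 0.76), and 16 higher and 17 lower with library totals.

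All 13 mitochondrially encoded protein genes were higher (median 1.14), with 7 called without replicate 1, 8 without replicate 3 and 7 when scaled by library totals. Their share of the assigned reads was 15.8%, 7.03% and 9.64% at 5 hpf, against 7.50%, 7.52% and 5.91% at the 128-cell stage, so that library 1 of 5 hpf stands apart and the groups overlap. The same library was the highest for ribosomal protein genes, and the part of library quality in these 2 groups was not tested. The nuclear genes of oxidative phosphorylation were higher in 47 of 104 and lower in 33 (median 0.22), beside 38.4% higher and 38.7% lower among all genes tested. That split turned to 17 higher and 55 lower when scaled by library totals. The zinc finger genes with znf1000-series names, a large zebrafish family of similar copies to which reads can be assigned uncertainly, were higher in 99 of 131 and lower in 15 (median 1.98), with 9 lower without replicate 1, and 48 were onset genes. With so many onset genes, the filter on low counts partly set this split.

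Summed over each list, genes of later tissues stayed below their levels at 24 hpf, while single muscle and other tissue genes rose. Of 48 Hox cluster genes, which pattern the trunk later, 6 could be tested, and all 6 were lower (3 with DESeq2's Wald test). A gene with few reads at 5 hpf passes the filter mainly by its level at the 128-cell stage. The filter therefore partly set this count. With no filter on low counts, 14 were lower and 1 was higher. Sums over the cluster genes were 11.09, 7.43 and 8.83 CPM at 5 hpf, against 22.73, 24.56 and 20.29 CPM at the 128-cell stage. At 24 hpf they were 1123 to 1310 CPM (without TMM scaling). Of 16 skeletal muscle genes tested, 5 were higher and 4 lower (median -0.28, range -2.4 to 8.28), with 1 onset gene. Among all genes tested, 38.4% were higher and 38.7% lower. Lower members numbered 2 without replicate 1 and 10 without replicate 2. Scaled by library totals, 3 were higher and 9 lower. The muscle myosin gene myhz1.1 had 1.2, 0.619 and 0.713 CPM at 5 hpf, against 6.34, 0.483 and 4.27 CPM at the 128-cell stage, and its call (-1.91 ± 0.50) was lost without replicate 1, after which it did not pass the filter. Libraries 1 and 3 of the 128-cell stage also stood above library 2 for members that did not pass the filter, such as myhz1.3, chosen after its values were seen, with 7, 8 and 2 reads at 5 hpf, against 118, 4 and 75 reads at the 128-cell stage, and for krt4, and the source of these low levels was not tested. Other tissue markers of later stages were higher in 4 of 14 and lower in 6, beside 38.4% higher and 38.7% lower among all genes tested. Of these markers, 3 were lower without replicate 1, and 2 with DESeq2's Wald test. Their log2 fold changes ran from -2.72 to 4.42, with 3 onset genes. Their sums were 48.04, 34.47 and 38.07 CPM at 5 hpf, against 27.73, 23.21 and 27.21 CPM at the 128-cell stage. At 24 hpf they were 2386 to 2628 CPM (without TMM scaling).

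The same 2 stages were sampled in embryos injected with the Csm complex, also in 3 libraries each with the replicate numbers 1, 2 and 3. There edgeR called 6418 of 16626 genes higher at 5 hpf (38.6%) and 6853 lower (41.2%). Of the onset genes of mock embryos, 1784 could be tested in Csm embryos and 1757 of these were called higher, and of the loss genes 291 could be tested and 291 were called lower. These counts are no independent check. Of the 1905 onset genes, 1695 also had at most 1 CPM (without TMM scaling) in each Csm 128-cell library. Such genes pass the filter mainly through the 5 hpf libraries. The paper also states that injected and mock embryos were divided at random from the same pooled offspring. A test of the difference itself, as an interaction of stage and injection over the 12 libraries and 17590 genes, called 0 genes (edgeR, smallest adjusted p 0.924), with 673 at an unadjusted p under 0.05. This count of 0 does not show that the stages changed alike in both injections.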

How the data were processed

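The authors deposited counts of reads per gene for each library, not normalized, over 32521 gene identifiers (29201 paired with a symbol, many of them spelled as the human orthologue) and 5 rows of unassigned reads, which were left out. In the 6 mock libraries reads without a feature were 11.066% to 16.879% of all listed counts, ambiguous reads 0.758% to 1.042% and reads with several alignments 5.349% to 11.2%. The submitters' processing notes name GRCz11, bcl2fastq 2.16.10, UMI-tools 1.0.0, cutadapt 2.4, STAR 2.7.2b, HTSeq 0.11.2, R 3.6.1 and DESeq2 1.24.0. The authors' normalized tables, counts divided by size factors, were not used.

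Genes were filtered with filterByExpr by stage, scaled with TMM and tested with edgeR 4.0.16 (limma 3.58.1, R 4.3.3) by the robust quasi-likelihood test with stage and replicate number, at a Benjamini-Hochberg adjusted p under 0.1, and for the stricter call at least 2-fold. The numbers mark independent injections, so they were kept as pairs. Deviations from the stage means correlated with r = 0.499, 0.296 and 0.224 between libraries of the same number and -0.422 to 0.163 between others. Such deviations cancel out within a stage, so positive values for the same number push the others down. The contrast is therefore only weak support for the pairing. Errors after ± are the absolute log2 fold change divided by the square root of the test's F statistic. They are not direct standard errors. Where a stage has few reads, they can be smaller than the counting error. A fold against 0 reads was set against 3 reads over the 3 libraries, and one against 1 to 3 reads is given with its exact 95% counting interval, which covers counting error only. The fit was tested on simulated data with known changes in a small part of the genes, equally many up and down, and no replicate effect. That simulation cannot check the scaling where most genes change. Alternatives were no block, DESeq2's size factors and Wald test (1.42.0), library totals, other filters (10 counts), all 18 libraries in 1 fit, dispersions without robust estimation, a threshold of 0.05 and each replicate left out.

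The lists, the tests and the comparison itself were chosen with earlier results of these data known. Named genes are list members, the 12 onset and 12 loss genes with the highest level in the stage that holds them, the 5 largest CPM changes in each direction, EGFP and DDX4, and MCM3, which was added after its values were seen. No gene coordinates or sequences are given, because the tables used here are of another genome build. Some members of the lists are not reported here.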

Additional observations from a re-analysis of the deposited data

How the results depend on the processing

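Of 134 genes named, 11 changed direction or call under at least 1 alternative, and the others did under none. Scaling by library totals had the widest effect: it gave 4209 genes higher, 7182 lower by at least 2-fold and 949 loss genes, and it reversed DDX4 (-0.28), nanog (-0.60) and AXIN2 (-0.43), of which only DDX4 had been called. With 1 replicate number left out, nanog ranged from -0.08 to 0.24. Of 58 counts of list members, 19 moved by over 1.5 times with library totals and 14 with some other alternative. With no filter on low counts there were 3786 onset and 465 loss genes, and with all 18 libraries in 1 fit 3067 onset genes. Leaving out 1 replicate number at a time gave 256 to 487 loss genes and 2008 to 2191 onset genes. Calls numbered 12094 without the replicate block, 11916 at a threshold of 0.05, 11728 with DESeq2's Wald test and 15264 of 27452 genes with no filter, against 12696, and 11745 to 12749 with a replicate left out. Leaving the block out changed the call of none of the 134 named genes that were tested. The cause of these shifts was not tested beyond the construction of each setting. Low counts limit the fold changes of onset genes: the 12 with the highest level rested on 5 to 37 reads at the 128-cell stage.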
